A study of Homo sapiens with 8 samples.

Results

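Open chromatin around 8 genes of the nucleic acid sensing system was examined in U-937, a human leukaemia line of monocytic character. The assay was ATAC-seq, which marks accessible DNA by letting a transposase insert sequencing adapters into it. The genes were RIGI, IFIH1, DHX58, MAVS, CGAS, STING1, AIM2 and IFI16, and a region belonged to them when it overlapped the gene body or the 25 kb on either side (GENCODE release 44, hg38). Overlapping peaks of the 4 deposited peak lists were joined into 161291 regions, and 89 of these lay in the 8 windows. The windows of AIM2 and IFI16 overlap, so 6 regions belong to both genes. The genes were chosen by their peaks in these lists, that is with the presence, position and fold of those peaks already known, so all values here are a description.

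The 4 groups received the vehicle DMSO, 0.1 µM ATRA, 0.1 µM Corin, or 0.1 µM of each compound, in every case for 24 h. ATRA, all-trans retinoic acid, activates the retinoic acid receptors. Corin inhibits the demethylase and deacetylase activities of CoREST, a histone-modifying co-repressor complex. Each group had 2 samples, but the deposited data gave 1 list per group made from both, so replicate spread is not known for any value and no difference could be tested. Nothing in the labels said whether the samples of a group were separate cultures, and a single cell line was studied.

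Cells detect misplaced or foreign nucleic acid with a small set of proteins. RIG-I (encoded by RIGI) and MDA5 (IFIH1) bind RNA in the cytosol and signal through MAVS on the mitochondrial surface, while LGP2 (DHX58) is a relative that lacks the signalling domains and modulates the other two. cGAS (CGAS) binds DNA and makes a cyclic dinucleotide that activates STING (STING1) on the endoplasmic reticulum. Both routes lead to the kinase TBK1, to IRF3 and NF-κB, and to type I interferon. AIM2 assembles an inflammasome on cytosolic DNA, and IFI16 is a related DNA-binding protein found in the nucleus and cytosol. Monocytes and macrophages are among the cells that use these routes, and several of the sensor genes are themselves induced by interferon through interferon-stimulated response elements (ISREs).

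The sequences below are those on which the description turns. Each is the reference sequence (hg38, plus strand, 5′ to 3′) around the summit of the strongest peak of its region, up to 200 bases long and shortened where it would enter an untranslated region. Capitals mark matches to the motifs searched on both strands, which are described with their background shares further on. RIGI, IFIH1 and AIM2 lie on the minus strand, so their promoters read against the direction of the gene.
The first pair comes from regions called with ATRA and with both compounds but not with DMSO or Corin. In the STING1 sequence, chr5:139492526-139492725, capitals mark a DR5 match followed by a PU.1 match, and in the AIM2 sequence, chr1:159162601-159162800, a PU.1 match.
STING1, 9.73 kb upstream: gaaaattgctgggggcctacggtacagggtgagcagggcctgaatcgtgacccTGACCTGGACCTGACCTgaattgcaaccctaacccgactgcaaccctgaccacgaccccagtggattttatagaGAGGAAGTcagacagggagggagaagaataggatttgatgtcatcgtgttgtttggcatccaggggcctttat
AIM2, 85.6 kb upstream: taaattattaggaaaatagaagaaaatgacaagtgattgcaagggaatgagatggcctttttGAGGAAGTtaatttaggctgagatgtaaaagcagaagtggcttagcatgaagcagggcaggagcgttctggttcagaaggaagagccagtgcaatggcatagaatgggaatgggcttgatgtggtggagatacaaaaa
The next 3 are at the starts of sensor genes, at chr2:162318685-162318824, chr1:159076792-159076991 and chr9:32526262-32526461. Capitals mark an ISRE and then a CTCF match in IFIH1, and an AP-1 and then an ISRE match in AIM2, and the RIGI window holds no match to the motifs searched.
IFIH1 promoter: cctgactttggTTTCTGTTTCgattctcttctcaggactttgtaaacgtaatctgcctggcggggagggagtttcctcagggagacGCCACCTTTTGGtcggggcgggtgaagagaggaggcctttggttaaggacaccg
AIM2 promoter: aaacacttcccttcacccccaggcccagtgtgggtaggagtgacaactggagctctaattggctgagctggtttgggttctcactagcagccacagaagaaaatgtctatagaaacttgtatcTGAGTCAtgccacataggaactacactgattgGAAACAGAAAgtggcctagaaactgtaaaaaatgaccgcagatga
RIGI promoter: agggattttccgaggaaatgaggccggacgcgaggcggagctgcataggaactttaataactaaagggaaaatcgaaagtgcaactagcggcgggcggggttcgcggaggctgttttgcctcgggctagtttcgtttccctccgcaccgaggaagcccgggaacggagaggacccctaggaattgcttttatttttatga
The last lies in an intron of RIGI, at chr9:32483472-32483671, in a region whose fold was high with ATRA alone. It holds no match to the motifs searched.
RIGI, 42.2 kb inside the gene: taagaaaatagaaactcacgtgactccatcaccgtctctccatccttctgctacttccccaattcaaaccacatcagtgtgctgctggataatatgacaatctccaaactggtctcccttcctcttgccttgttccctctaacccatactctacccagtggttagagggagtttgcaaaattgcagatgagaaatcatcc

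The value compared is the fold over local background that the authors gave each peak. A region takes the highest fold among its peaks in a list, as it does for −log10 p and pileup. Folds ran higher throughout the ATRA list: its median fold was 4.80, against 3.47 with DMSO, 3.32 with Corin and 3.68 with both compounds. The commonest background was lowest there, at 9.12 reads against 12.8, 13.1 and 13.9. Ratios between lists were therefore taken on the log2 scale and centred on the median of all regions called in both lists. That median was 0.33 for ATRA over DMSO, −0.09 for Corin over DMSO and 0.03 for both compounds over DMSO. It was −0.34 for both compounds over ATRA and 0.10 for both compounds over Corin. A centred ratio past 1.5-fold, which is 0.58 on the log2 scale, is called higher or lower. The pileup of reads at a summit, solved from the deposited fold and p, is given as a second scale. The number of reads sequenced is unknown. In a bulk assay, a site open in more cells and a site more open in each cell cannot be told apart.

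Chromatin at the markers of the cell type was checked in the same lists. A region lay at the start of 6 of 7 myeloid markers in every list, the exception being MPO, against 1 of 3 T cell markers (CD2). CSF1R, the receptor for the macrophage growth factor, had folds of 2.69 with DMSO, 9.40 with ATRA, 1.91 with Corin and 5.18 with both compounds. None of 6 erythroid and epithelial markers had a region at the start in all 4 lists, GATA1 having it in 2 lists and ALAS2 and EPCAM in 1 each.

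Of the 89 regions, 51 (57.3%, 95% Wilson interval 46.9 to 67.1, counting error only) were called in all 4 lists, against 41.1% of all regions. The window regions were also wider, at a median of 727 bp against 560 bp, and 35 of them (39.3%) lay within 1 kb of an annotated start, against 20.7% of all. The 38 regions missing from at least 1 list were weaker than the 51, with a median highest −log10 p of 23.9 against 343. Over all regions missing from at least 1 list this median was 12.4. The gain or loss of a call therefore concerned mostly the weaker peaks of the windows.

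Between the ATRA and DMSO lists, 15 of 74 regions were gained, that is called with ATRA but not with DMSO (20.3%, against 23.3% of all regions) and 9 of 68 were lost (13.2%, against 25.4%). Each percentage is followed by the same share over all regions. Of the 59 regions called in both, 8 were higher with ATRA (13.6%, against 16.6%) and 4 were lower (6.78%, against 8.8%). Without centring, which leaves in the median of 0.33 over all shared regions, the split was 17 higher and 1 lower. With Corin, 6 of 65 regions were gained (9.23%, against 17.8%) and 9 of 68 were lost (13.2%, against 28.4%). Of 59 shared regions, 3 were higher (5.08%, against 6.34%) and 5 lower (8.47%, against 10.8%). With both compounds, 8 of 66 were gained (12.1%, against 16.6%) and 10 of 68 lost (14.7%, against 31.6%). Of 58 shared regions, 5 were higher (8.62%, against 8.26%) and 8 lower (13.8%, against 12.1%).

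The lists with both compounds and with a single compound were compared in the same way. Against ATRA alone, 6 of 66 regions were gained (9.09%, against 15.4%) and 14 of 74 lost (18.9%, against 28.7%). Of 60 shared regions, 4 were higher (6.67%, against 7.18%) and 10 lower (16.7%, against 18.1%). With the median of −0.34 over all shared regions left in, the split was 1 higher and 17 lower. Against Corin alone, 11 of 66 were gained (16.7%, against 20.4%) and 10 of 65 lost (15.4%, against 25.1%). Of 55 shared regions, 5 were higher (9.09%, against 9.71%) and 2 lower (3.64%, against 8.97%), a split of 6 to 5 by pileup. The splits without centring and by pileup were not counted over all regions. The median centred ratio of the window regions lay between −0.01 and 0.05 in these 5 comparisons, which share lists with each other.

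**Figure D1:**
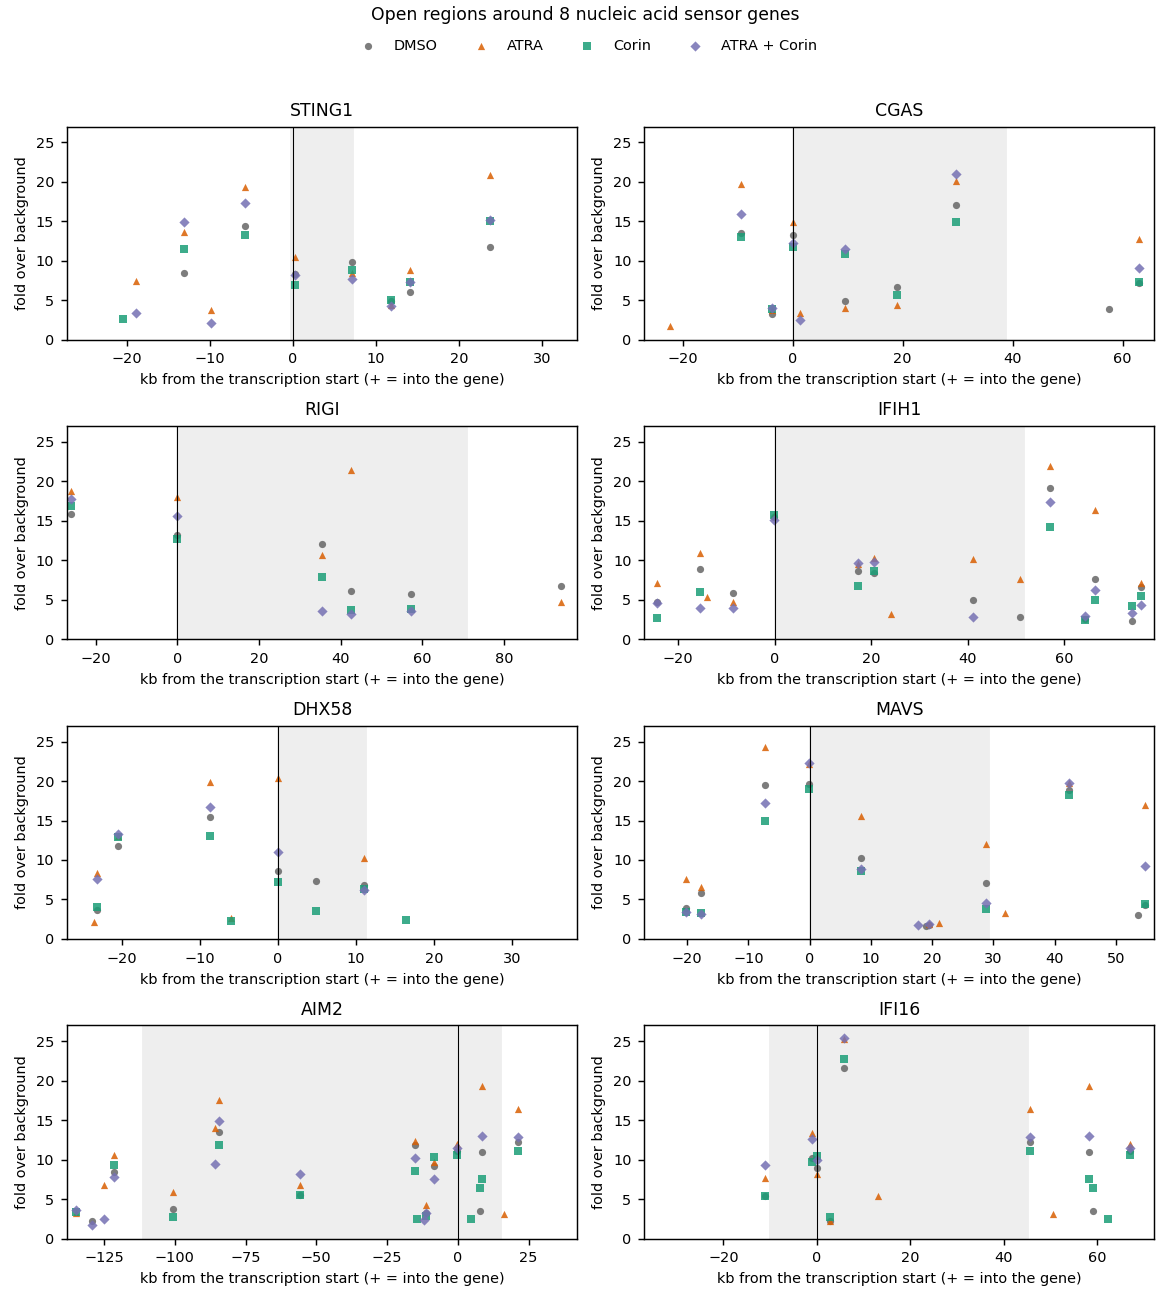
Fold over background (vertical axis) of every called region against the distance of its summit from the transcription start in kb (horizontal axis, positive into the gene), with the gene body shaded and 1 symbol per list. Each of the 8 genes had a region at its start in all 4 lists, a share not computed over all genes. The largest ratio between lists was found away from the starts, 42.2 kb inside RIGI.

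All 8 genes had a region over the transcription start in all 4 lists. Of all 13419 regions at coding starts, 12108 were called with both DMSO and ATRA, and the share in all 4 lists was not computed. Genes without a region are not in that count. Of the 24 ratios of the sensor genes against DMSO, only that of DHX58 with ATRA was past the limit by fold. Over all regions at coding starts, 3.28% were higher and 3.98% lower with ATRA, 1.79% and 1.5% with Corin, and 2.71% and 1.74% with both compounds. Both compounds over Corin alone gave no sensor promoter past the limit by fold, against 1.78% higher and 1.38% lower over all coding starts.

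DHX58, the gene of LGP2, had promoter folds of 8.60 with DMSO, 20.4 with ATRA, 7.20 with Corin and 11 with both compounds (chr17:42112097-42113257). The ATRA list stood above the other 3, with the list of both compounds next. The centred log2 ratio to DMSO was 0.91 with ATRA, −0.17 with Corin and 0.33 with both compounds. That of both compounds to ATRA was −0.55, beside a median of 0.27 over all coding starts. Pileups ran in the same order, at 246, 490, 176 and 302 reads. By pileup the ratio of both compounds to ATRA was −0.69, past the limit. The summit window of this region holds an ISRE match.

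The promoters of the RNA sensors RIGI and IFIH1 differed less. RIGI (chr9:32525658-32526845) had folds of 13.3, 18.0, 12.7 and 15.6 with DMSO, ATRA, Corin and both compounds, and its ratios to DMSO were 0.11, 0.02 and 0.21. IFIH1 (chr2:162317765-162319325) had folds of 15.5, 15.8, 15.7 and 15.1, the narrowest range of the 8, and ratios of −0.31, 0.10 and −0.07. The promoter of the adaptor MAVS (chr20:3846139-3847712) was the strongest of the 8, with folds of 19.6, 22.2, 19.1 and 22.3.

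On the DNA side, the CGAS promoter (chr6:73451176-73452710) had folds of 13.2, 14.9, 11.7 and 12.2, with ratios to DMSO of −0.16, −0.09 and −0.14. The promoter of STING1, the adaptor of cGAS, lay lower (chr5:139481074-139483161), with folds of 8.28, 10.5, 6.88 and 8.17 and ratios of 0.00, −0.18 and −0.05. No ratio of either gene to DMSO was past the limit.

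The remaining DNA sensors, IFI16 and AIM2, are neighbours on chromosome 1. IFI16 (chr1:159009406-159010347) had folds of 8.90, 8.22, 10.4 and 9.91, so that it was lowest with ATRA, where the ratio to DMSO was −0.45. Its ratio was 0.32 with Corin and 0.13 with both compounds. Both compounds over ATRA gave 0.61 by fold, past the limit, and 0.23 by pileup, which is not past it. By fold, 8.07% of all coding starts were higher with both compounds than with ATRA alone and 2.89% were lower. The median ratio of all coding starts in that comparison was 0.27.

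AIM2 differed by pileup but not by fold. Its folds of 11.1, 12.0, 10.6 and 11.4 (chr1:159076423-159077809) were level, but the pileup was 469 reads with DMSO, 523 with ATRA, 754 with Corin and 990 with both compounds. The centred pileup ratios to DMSO were 0.06, 0.82 and 0.92, the latter pair past the limit, and both compounds over ATRA gave 0.93. By pileup, 4.38% of all coding starts were higher and 2.44% lower with Corin, and 7.12% and 3.65% with both compounds. Against ATRA alone, 14.1% were higher and 3.1% lower with both compounds. The background under the peak moved with the pileup, at 41.5, 42.6, 70.9 and 85.6 reads. The part of the background in this difference was not tested.

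**Figure D2:**
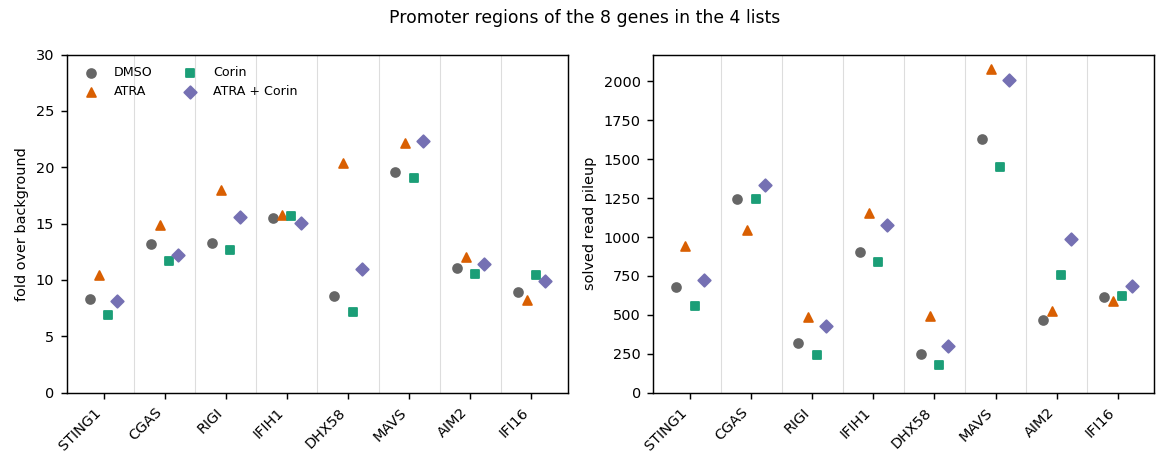
Promoter regions of the 8 genes, as fold over background (left) and as solved read pileup (right), with 1 symbol for each of the 4 lists and no error bars since each list pools its samples. DHX58 stands apart with ATRA at a fold of 20.4, and AIM2 differs in pileup, from 469 to 990 reads, but not in fold.

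RIGI held the largest ratio between lists among all windows. The region chr9:32483249-32484037, in an intron 42.2 kb inside the gene, had folds of 6.16 with DMSO, 21.4 with ATRA, 3.68 with Corin and 3.21 with both compounds. The ATRA list was the only high one, and both lists with Corin lay below DMSO. The ratio to DMSO was 1.47 with ATRA, −0.66 with Corin and −0.97 with both compounds. Both compounds over ATRA alone gave −2.40, and pileups were 84, 216, 51 and 47 reads.

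Another RIGI intron region, 35 kb inside the gene (chr9:32490537-32491195), did not share the high ATRA value. Its folds were 12.1, 10.7, 7.92 and 3.55 with DMSO, ATRA, Corin and both compounds. Only the last passed the limit, with a ratio to DMSO of −1.80, beside −0.52 with ATRA and −0.53 with Corin. A region at the far end of the window, in an intron of ACO1 (chr9:32432019-32432270), was called with DMSO at a fold of 6.74 and with ATRA at 4.74, and in neither list with Corin. The strongest region of the window, at the start of SMIM27 (chr9:32550975-32552917), kept folds of 15.9, 18.8, 16.9 and 17.8. Of the 6 regions around RIGI, 4 were called in all lists.

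Around IFIH1, 15 regions were found and 8 were called in all lists. The strongest lay 56.7 kb from its start, beyond the end of the gene (chr2:162260827-162261983), with folds of 19.1, 21.9, 14.3 and 17.3. Beyond the gene end, chr2:162251941-162252674 had folds of 7.62, 16.4, 4.94 and 6.21, so that ATRA alone was high, with a ratio of 0.77 to DMSO and −1.07 for both compounds over ATRA. As 42.2 kb inside RIGI, ATRA was high and both Corin lists lay under DMSO in fold. The lowest list differed, being Corin alone here and both compounds in RIGI.

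Upstream of IFIH1, introns of GCA, which encodes the calcium-binding protein grancalcin, held 2 further regions. At chr2:162333724-162334289 the folds were 8.91, 11, 5.97 and 3.95, and the ratio to DMSO passed the limit with both compounds, at −1.20. At chr2:162342404-162343174 they were 4.67, 7.09, 2.65 and 4.64, and the ratio passed it with Corin, at −0.73. A pair of regions in the body of IFIH1 is added here after their values were seen. At chr2:162267566-162268152, in an intron, DMSO had a fold of 2.83 and ATRA 7.61, with no call in either Corin list. At chr2:162277321-162277965, over coding sequence, the folds were 5.0 with DMSO, 10.2 with ATRA and 2.81 with both compounds, with no call with Corin. Their ratios of ATRA to DMSO were 1.09 and 0.69.

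The DHX58 window held 9 regions, 5 of them in all lists. Besides the promoter, the region chr17:42135686-42136018 in an intron of RAB5C, a gene of endosome transport, had folds of 3.72, 8.38, 4.07 and 7.61. Both lists with ATRA were high and both without it low, with ratios to DMSO of 0.84 with ATRA, 0.22 with Corin and 1.01 with both compounds. Its pileups of 128, 339, 134 and 411 reads kept that order, and its summit window holds a PU.1 match. In an intron of DHX58 itself, chr17:42107761-42108037 was called with DMSO at a fold of 7.38 and with Corin at 3.56, and in neither ATRA list. The strongest region, at the start of KAT2A (chr17:42120634-42121828), had folds of 15.4, 19.9, 13.1 and 16.7.

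Of the 14 regions around MAVS, 8 were called in all lists. The largest ratio to DMSO with ATRA in any window lay here, in an intron of the neighbouring PANK2, a gene of coenzyme A synthesis (chr20:3901036-3902452). Its folds were 4.34, 17, 4.37 and 9.29, and the pileups 74, 317, 77 and 193 reads. The ratio was 1.63 with ATRA, 0.09 with Corin and 1.07 with both compounds. DMSO and Corin were alike and both ATRA lists above them.

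Over an untranslated region near the end of MAVS (chr20:3874444-3875909), the folds were 7.06, 12.0, 3.82 and 4.51. Here the lists without Corin were the higher pair, and the ratio to DMSO was 0.43 with ATRA, −0.80 with Corin and −0.67 with both compounds. Near AP5S1, upstream of MAVS (chr20:3826236-3826953), the folds were 3.93, 7.53, 3.40 and 3.43, with a ratio of 0.60 for ATRA. The strongest region of the window, at the start of PANK2 (chr20:3888360-3889984), was flat at 18.9, 19.8, 18.3 and 19.7.

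CGAS had 10 regions, 6 in all lists, and the largest ratio of Corin to DMSO in any window. That region lay in an intron 9.14 kb inside the gene (chr6:73441837-73443160), with folds of 4.86 with DMSO, 4.05 with ATRA, 10.9 with Corin and 11.5 with both compounds. Pileups were 66, 40, 257 and 298 reads. The ratio to DMSO was 1.25 with Corin, 1.21 with both compounds and −0.60 with ATRA, and both compounds over ATRA gave 1.84. Its 200-bp summit window has 2 other places in the genome that match over at least 90% of it at 90% identity or more. How the authors placed reads that fit several places is not given in the sources used here, and its part in this value was not tested.

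Further into CGAS, chr6:73433217-73433876 had folds of 6.69 with DMSO, 4.35 with ATRA and 5.66 with Corin, and was not called with both compounds. The ratio to DMSO was −0.96 with ATRA. Next to the promoter, chr6:73450500-73451031 was called with ATRA at a fold of 3.34 and with both compounds at 2.52. The summit window of that region matches 18345 other places, so it cannot be assigned to this site alone.

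Around STING1, 10 regions were found, 7 of them in all lists. The strongest was 5.17 kb upstream (chr5:139487928-139488901), with folds of 14.4, 19.3, 13.2 and 17.3 and pileups of 374, 943, 351 and 635 reads. By fold its ratios to DMSO were 0.09, −0.04 and 0.23. The ATRA lists were thus above the others in pileup, but the background under the peak moved too, from 25 reads with DMSO to 47.8 with ATRA.

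The next region upstream of STING1 was called only in the lists with ATRA. At 9.73 kb (chr5:139492490-139493216) the fold was 3.75 with ATRA and 2.06 with both compounds, with −log10 p of 64.3 and 12.1 and pileups of 240 and 115 reads. Its summit window is the sequence with the DR5 match printed above. DR5, a direct repeat of the half-site AGGTCA, is the classical element bound by retinoic acid receptors with RXR. The region 18.7 kb upstream (chr5:139501478-139501890) had the same pattern, with folds of 7.41 and 3.35.

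Between these, 12.6 kb upstream of STING1, chr5:139495362-139496492 was called in all lists with folds of 8.42, 13.6, 11.5 and 14.9. DMSO was the lowest, and the ratio to it was 0.36 with ATRA, 0.54 with Corin and 0.80 with both compounds, so that only the last passed the limit. Pileups were 165, 437, 274 and 520 reads. The summit window has 1 other match in the genome.

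AIM2 had the widest window and 19 regions, 9 of them in all lists. The strongest of its regions missing from a list was chr1:159162404-159163000, 85.6 kb upstream of its coding start and 8609 bp from the start of CADM3. It lies outside coding transcripts but within the annotated AIM2 gene, which a transcript without a defined coding sequence extends upstream. The fold was 14 with ATRA and 9.46 with both compounds, with −log10 p of 140 and 99.8, and there was no call with DMSO or Corin. A region further upstream (chr1:159201580-159202204) had the same pattern, with folds of 6.74 and 2.44.

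An AIM2 intron region that also lies in the IFI16 window (chr1:159068882-159069198) had the opposite pattern. It was called with DMSO at a fold of 3.45 and with Corin at 6.34, a ratio of 0.96, and in neither list with ATRA. Its summit window holds an AP-1 match.

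Around IFI16, 12 regions were found and 7 were called in all lists. The strongest, 5.41 kb inside the gene (chr1:159015317-159016115), had the highest folds of any region named here, at 21.6, 25.2, 22.8 and 25.4. The region 10.7 kb upstream of the coding start (chr1:158998403-158999178) had folds of 5.36, 7.71, 5.45 and 9.31. Its ratio to DMSO was 0.19 with ATRA, 0.11 with Corin and 0.77 with both compounds, and its summit window holds a CTCF match. A weak region 2.66 kb inside IFI16 (chr1:159012566-159012809) had folds of 2.27, 2.20 and 2.67 and was not called with both compounds.

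**Figure D3:**
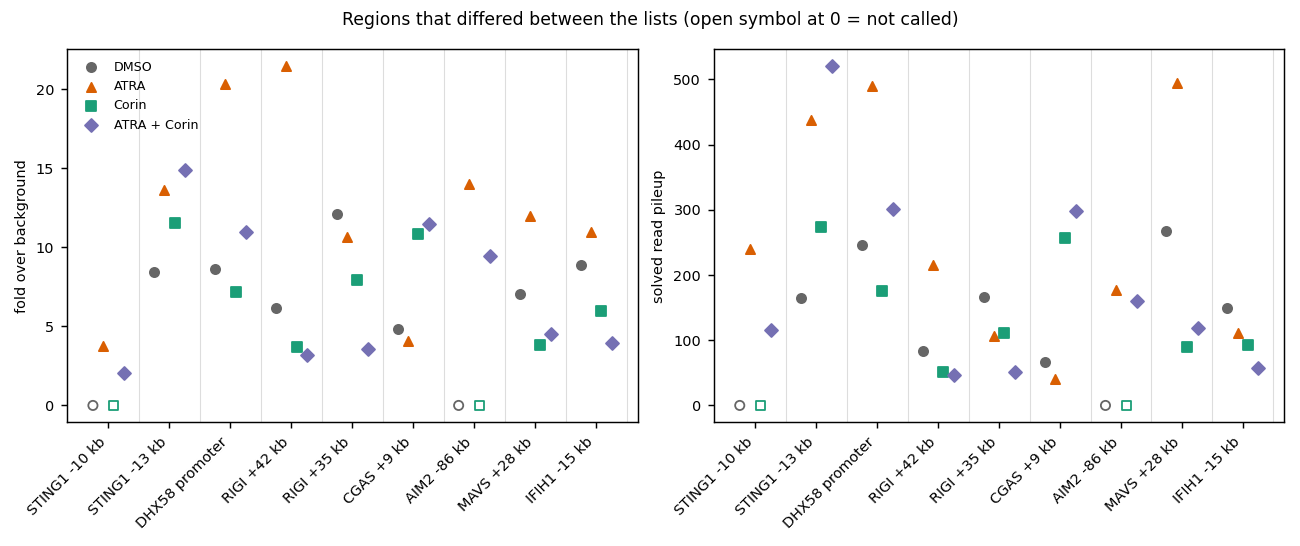
Fold over background (left) and solved read pileup (right) of 9 regions described in the text, with distances from the coding start in kb (minus upstream, plus into the gene), 1 symbol per list and an open symbol at 0 where no peak was called. RIGI at 42 kb is high with ATRA alone, at a fold of 21.4, and CGAS at 9 kb is high in both lists with Corin, at 10.9 and 11.5.

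Across the windows, 5 regions were called in both lists with ATRA and in neither without it. They were the pair upstream of STING1, the pair upstream of AIM2 and the repeated one beside the CGAS promoter. They make up 5.62% of the window regions, and the same pattern holds for 3.20% of all regions. In all 5 the fold was lower with both compounds than with ATRA alone, with centred ratios of −0.53, −0.81, −0.23, −1.13 and −0.07. Only the second and the fourth passed the limit, beside 18.1% lower over all shared regions. The uncentred median over all shared regions was −0.34 in this comparison, so a lower fold was common there too. By pileup the value was lower in 4 of the 5, the exception being the CGAS region, with 208 reads with ATRA and 239 with both compounds. These counts were not made over all regions of the same pattern. The reverse pattern, a call with DMSO and Corin only, was held by 2 regions (2.25%, against 4.24% of all), those in introns of DHX58 and AIM2.

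The ratio for ATRA was then set beside the same ratio in the presence of Corin. For RIGI at 42.2 kb it was 1.47 without Corin and −0.30 with it. For the PANK2 intron near MAVS it was 1.63 and 0.99. The RAB5C intron near DHX58 gave 0.84 and 0.80, and the DHX58 promoter 0.91 and 0.51. The region beyond the end of IFIH1 gave 0.77 and 0.23, and that near AP5S1 gave 0.60 and −0.09. These 6 were the regions higher with ATRA that were called in all lists. They were chosen by the first ratio, so a smaller second ratio is favoured by the choice itself. In the presence of Corin, 2 of them were past the limit, and the same share over all regions was not computed. Without replicates, the differences between these ratios could not be tested.

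**Figure D4:**
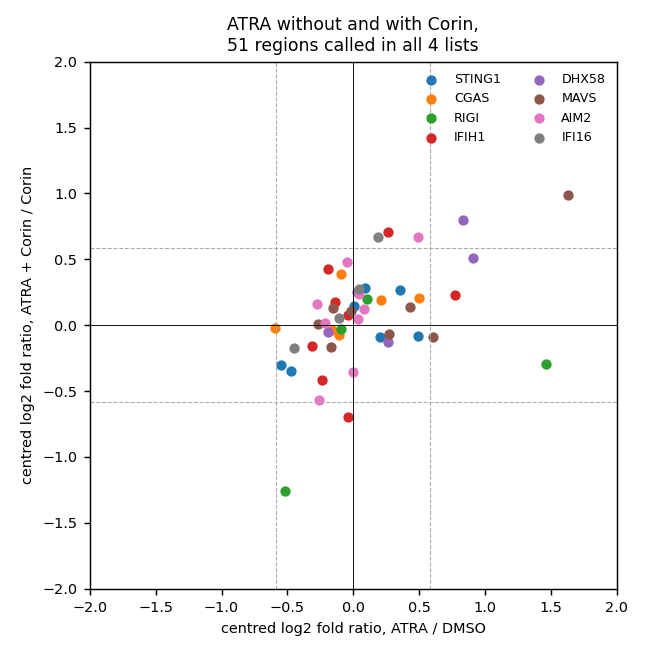
Centred log2 fold ratio of both compounds over Corin (vertical axis) against that of ATRA over DMSO (horizontal axis) for the 51 regions called in all 4 lists, coloured by gene, with regions of 2 windows under AIM2 and dashed lines at the 1.5-fold limit. RIGI at 42.2 kb lies far right and below 0, at 1.47 and −0.30, and the PANK2 intron near MAVS lies at 1.63 and 0.99.

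The edge of the windows is set by the rule, and values just inside and outside it were as follows. The PANK2 intron region near MAVS lay 24913 bp from the gene, just inside. Just outside was a region 25107 bp from IFIH1 (chr2:162343791-162344767), with folds of 12.6, 13.1, 17.6 and 16.2.

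Summit windows of 200 bp were searched for 12 motifs. The ISRE, searched as GAAA, any 2 bases and GAAA, occurred in 5 of the 89 windows (5.62%, against 3.07% of all regions), among them the promoters of DHX58, IFIH1 and AIM2. The others were 2 AIM2 regions upstream of its coding start. DR5, searched as AGGTCA, any 5 bases and AGGTCA, occurred in 1 window, that upstream of STING1, and in 29 of all 161291. PU.1, the myeloid ETS factor, spelled GAGGAAGT, occurred in 8 (8.99%, against 6.73%). AP-1, spelled TGANTCA, occurred in 12 (13.5%, against 12.2%), and CTCF, searched as CCA, any 2 bases, AG, any 2 bases and GGC, in 6 (6.74%, against 5.47%). Matches of a motif were allowed to overlap each other and those of other motifs. The median GC content of the windows was 49%, against 49.5% for all. A match describes letters and not the binding of a factor.

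RefSeq promoter sequences (GRCh38.p14) were found for 5 of the 8 genes, RIGI, IFIH1, MAVS, AIM2 and IFI16, and not for STING1, CGAS and DHX58. In the 250 bases before the RefSeq start, the ISRE letters occurred in IFIH1 and AIM2, and in 3.02% of 35116 promoters. The RefSeq start can differ from the principal start used above. For IFI16 the bases searched (chr1:159008741-159008990) lie outside the promoter region described. Of 46 further genes of the pathway 33 had a sequence, and the letters occurred in RELA, OAS3, IFIT1 and MNDA. The RELA sequence precedes a start other than its principal one.

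Starts were then read for 46 other genes of the pathway, a list of adaptors and transcription factors, regulators, nucleases, inflammasome components and effectors. A region counted when it lay over the start or within 1 kb of it, and 44 genes had such a region in all 4 lists. The same share over all genes was not computed. The region lay over the start for all of these 44 but ZBP1, where it was 768 bp away. The exceptions were ENPP1, which degrades the cGAS product and had none, and the interferon gene IFNB1, which had one with DMSO only. The windows of the list held 576 regions, of which 290 (50.3%, against 41.1% of all regions) were called in all lists.

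By fold, no start of the 44 was higher with ATRA and 1 was lower (against 3.28% and 3.98% of all coding starts). The lower one was SAMHD1, an enzyme that depletes deoxynucleotides, with a ratio of −0.62 by fold but 0.29 by pileup. With Corin, 1 was higher and none lower (against 1.79% and 1.5%). This was TRAF3, an adaptor downstream of MAVS, with a ratio of 0.79 and folds of 6.18, 5.70, 10.1 and 11.6 in the 4 lists.

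With both compounds, 4 of the 44 were higher by fold and 1 was lower (against 2.71% and 1.74%). TRAF3 gave 0.88, PYCARD (the inflammasome adaptor ASC) 0.77, ZBP1 (a sensor of Z-form nucleic acid) 0.71 and GSDMD (the pore protein gasdermin D) 0.60. PYHIN1, a relative of AIM2 and IFI16, gave −0.59. By pileup, TRAF3, ZBP1, GSDMD and PYHIN1 were past the limit too, at 0.86, 0.84, 0.76 and −0.61, and PYCARD was not, at 0.34.

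The pileup scale gave other starts with ATRA. By pileup, 5 of the 44 were higher and 1 lower with ATRA (against 4.69% and 5.24% of all coding starts), 3 and 0 with Corin (4.38% and 2.44%), and 8 and 1 with both compounds (7.12% and 3.65%). The genes named next were chosen after their values were seen. OAS1, OAS2, OAS3 and OASL belong to the oligoadenylate synthetase family, which senses double-stranded RNA or descends from such sensors. OAS1, OAS3 and OAS2 are neighbours on chromosome 12 with overlapping windows, so the 5 starts higher with ATRA are not all separate loci. OAS1 had pileups of 208, 616, 276 and 600 reads, and OAS3 of 218, 657, 238 and 519, so that in both genes the lists with ATRA were the high pair. The pileup ratios to DMSO were 1.46 for OAS1 and 1.49 for OAS3 with ATRA, and 1.37 and 1.09 with both compounds. The fold ratios were 0.07 and 0.30 with ATRA, and the background under the peaks moved with the pileup, from 19.2 to 43.9 reads for OAS1 and from 15.6 to 31.1 for OAS3. OASL gave pileup ratios of 0.68 with ATRA and 1.08 with both compounds, and OAS2 gave 0.66 with ATRA. The other starts higher by pileup were GSDMD with ATRA (0.63), RELA (0.61), ZBP1 (0.74) and TRAF3 (0.81) with Corin, and NFKB1 (0.66) and RELA (0.62) with both compounds. TRAF3 was the lower one with ATRA, at −0.66.

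By fold, the median ratio over the 44 was −0.16 with ATRA, 0.03 with Corin and 0.04 with both compounds, and over all coding starts it was −0.19, 0.07 and 0.05. The 8 sensor genes had medians of −0.16, 0.02 and 0.07.

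**Figure D5:**
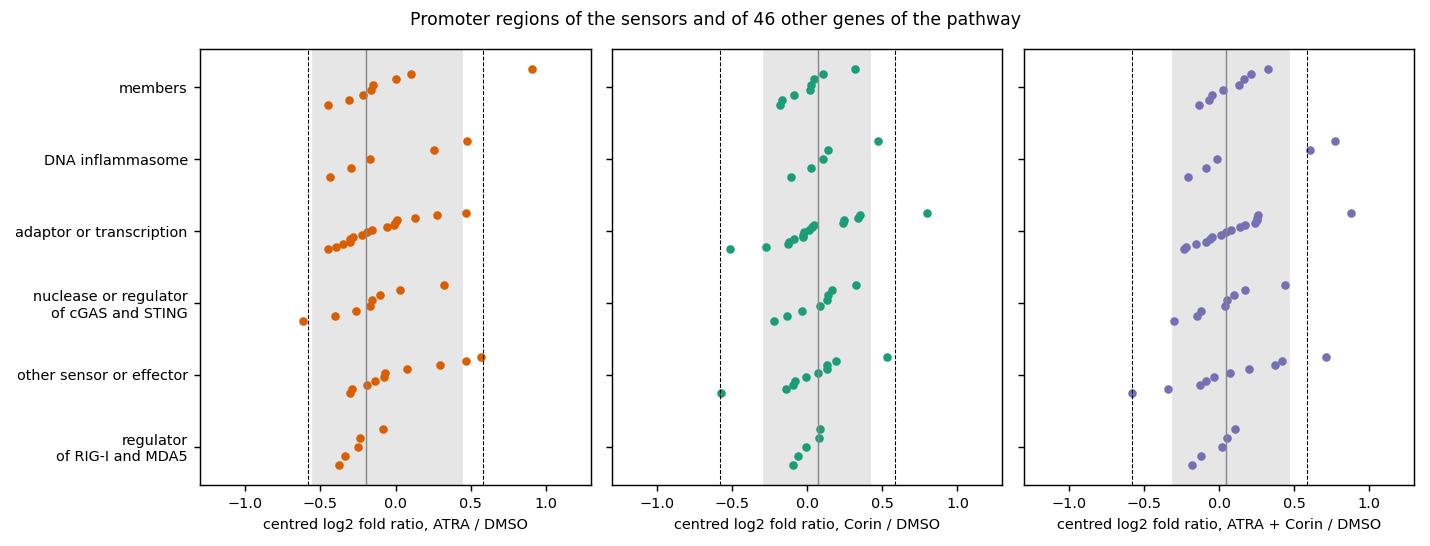
Centred log2 fold ratio to DMSO (horizontal axes) of the promoter regions of the 8 sensor genes and of 5 groups of other pathway genes (rows), for ATRA, Corin and both compounds, with 1 point per gene. Grey bands hold the central 90% of all coding starts with a grey line at their median, and dashed lines mark the 1.5-fold limit, past which DHX58 lies with ATRA at 0.91 and TRAF3 with both compounds at 0.88.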

How the data were processed

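ATAC-seq data from 8 samples, 2 in each of 4 groups, were used as 1 deposited narrowPeak list per group. Per the submitters' processing notes, cutadapt, Bowtie2, SAMtools, Picard and MACS2 were used with hg38. Versions and settings are not given in the sources used here. For the way replicates were combined they give only the label ppr.naive_overlap, without an explanation. Whether a call was present in both samples of its group is therefore not known. In the deposited lists the fold is a ratio of pileup over local background, the p and q values are −log10 values, and the summit is an offset in bp, as read from the layout and the values. These are the authors' values, and ratios between lists are descriptions. The lowest deposited −log10 p was 2.79 with DMSO and 2.00 in the other lists, and 1 of the 89 regions had no value above 2.79.

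Peaks on 24 chromosomes overlapping by at least 1 bp were joined over the lists with Python 3.11.15, and overlap counts were equal to those of bedtools 2.31.1 in the 10 list pairs checked. A region was called in a list when a peak of that list lay in it. The pileup and background were solved from the deposited fold and p, and were whole reads within 0.05 for at least 99.96% of peaks. Annotation and distances refer to coding transcripts, with the start taken from the principal one. The code was tested on simulated data.

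The genes and lists were chosen with earlier results of these data known. Named for each gene were its promoter, the strongest region of its window, and up to 3 regions, strongest first, that were missing from a list or past the limit against DMSO. Of the pathway list, promoters past the limit were named. Alternatives were a −log10 q of at least 5, lists of equal length, a cover of at least 50%, 10 kb windows, no centring, the peak with the highest p, and pileup in place of fold. Some items, a marker and sequences among them, are not reported here.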

Additional observations from a re-analysis of the deposited data

How the results depend on the processing

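No paired analysis was possible because each deposited list pools both samples of its group, and for the same reason no sample could be left out. The 21 shares of window regions were recomputed in 94 ways, and 87 stayed within the counting interval of the value given. Requiring a cover of at least 50% lowered the share called in all lists to 44.9% (33.9% of all regions at that setting). It raised the share lost with Corin to 23.8% and the share gained with both compounds over Corin to 28.6%. Without centring, 28.8% of regions were higher and 1.69% lower with ATRA. With both compounds, 1.67% were then higher and 28.3% lower than with ATRA alone. Uncentred ratios hold the shift of the whole lists, a median of 0.33 for ATRA over DMSO and −0.34 for both compounds over ATRA. The lost, gained and uncentred shares over all regions at these settings were not computed. Limits on −log10 q, equal lengths and 10 kb windows left 82, 84 and 61 regions. Of 96 alternatives for the 24 promoter ratios against DMSO, which included centring on coding starts, chosen after seeing the data, 94 kept their side of the limit, and AIM2 by pileup passed it with Corin (0.82) and with both compounds (0.92). Depth is unknown, and a missing call does not show closed chromatin.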

Other observations

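After the ISRE match in the DHX58 promoter was seen, all coding starts with the same letters in the summit window were listed. Of 216 such regions, 23 (10.6%) were higher with ATRA than with DMSO, against 3.28% of all 12108 coding starts called in both lists. The DHX58 promoter that prompted the search is itself among these 23. The median centred log2 ratio of the 216 was −0.09, against −0.19, so most of them were not past the limit.

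The 29 windows of the genome with a DR5 match, looked up after the match upstream of STING1 was seen, included 7 (24.1%) called in both lists with ATRA and in neither without it, against 3.20% of all regions. The STING1 window that prompted the search is itself among these 7. A further 8 (27.6%) were called in all 4 lists, against 41.1%, and 3 (10.3%) with ATRA alone, against 11.4%.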
